A study of Mus musculus with 16 samples.

Results

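The 10 genes described here encode chaperones and folding enzymes of the endoplasmic reticulum (ER), together with Xbp1, a transcription factor that raises such genes in the unfolded protein response. They were chosen by name, from their known roles and with earlier results of these data known, and make up 10 of the 57143 genes in the table. Left ventricles were taken from male C57BL/6 mice labelled as operated on in the abdomen under sevoflurane, an inhaled anesthetic, and their RNA was sequenced. The times were 0h, 3h, 24h and 7d, with 4 libraries each, and the labels give the same treatment for all 16 and do not say whether the 0h libraries were taken before or after the operation, so a difference from 0h is a difference between times. The labels do not give the age of the mice or say that each library is its own animal, so p-values measure only how far these libraries spread, which may be technical.

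The ER folds proteins bound for the cell surface, for secretion or for membranes, with the help of chaperones that hold unfolded chains, lectins that bind sugar-tagged chains and enzymes that form disulfide bonds. When unfolded proteins pile up, the sensors IRE1, ATF6 and PERK signal out of the ER. IRE1 cuts Xbp1 RNA so that an active factor is made, ATF6 is released as a factor itself, and PERK slows translation. In heart muscle the ER is continuous with the sarcoplasmic reticulum, the calcium store that drives contraction, and several ER chaperones bind calcium. Xbp1 is measured here as RNA per gene, which does not separate its cut and uncut forms.

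The promoters are shown first because one motif, the ER stress response element (ERSE), is shared by part of the group. It is a textbook motif known from promoters of such chaperones, so its share here follows in part from which genes make up the group and is a description. The ERSE is CCAAT, then 9 bases of any kind, then CCACG, and NF-Y binds it together with ATF6 or XBP1. It was searched on both strands from 250 bases before to 50 bases after each gene's start, in RefSeq promoters of build GRCm38.p6, and a gene counted once if any of its starts had a match. Of the 10 genes, 9 had a promoter there, and 5 of these 9 (55.6%) held the motif, against 0.137% of all 27025 genes with a promoter and 0.184% of the 10895 tested genes with one. The 250 bases before the start of these 5 are printed 5′ to 3′ on the gene's strand with the motif in capitals (opposite-strand matches start with CGTGG and end with ATTGG).
Hspa5: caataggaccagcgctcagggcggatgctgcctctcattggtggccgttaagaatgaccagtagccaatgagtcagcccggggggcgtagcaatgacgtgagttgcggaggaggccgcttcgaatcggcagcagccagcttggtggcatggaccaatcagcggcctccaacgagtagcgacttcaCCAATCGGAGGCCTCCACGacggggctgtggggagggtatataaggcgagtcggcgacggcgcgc
Hsp90b1: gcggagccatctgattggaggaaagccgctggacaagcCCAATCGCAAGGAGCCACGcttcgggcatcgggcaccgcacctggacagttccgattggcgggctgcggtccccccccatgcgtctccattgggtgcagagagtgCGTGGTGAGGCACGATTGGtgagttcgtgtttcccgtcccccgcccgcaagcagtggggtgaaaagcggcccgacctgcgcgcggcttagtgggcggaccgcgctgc
Calr: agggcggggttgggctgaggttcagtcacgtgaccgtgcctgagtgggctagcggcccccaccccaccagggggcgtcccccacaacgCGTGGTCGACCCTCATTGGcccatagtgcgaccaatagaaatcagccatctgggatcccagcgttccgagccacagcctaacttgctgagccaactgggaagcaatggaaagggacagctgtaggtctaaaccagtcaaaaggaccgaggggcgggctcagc
Canx: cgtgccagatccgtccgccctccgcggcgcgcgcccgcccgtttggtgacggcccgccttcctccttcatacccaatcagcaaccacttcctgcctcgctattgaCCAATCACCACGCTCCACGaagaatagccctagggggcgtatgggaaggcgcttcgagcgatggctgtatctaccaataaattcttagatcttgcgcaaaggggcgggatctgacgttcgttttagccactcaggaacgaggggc
Pdia6: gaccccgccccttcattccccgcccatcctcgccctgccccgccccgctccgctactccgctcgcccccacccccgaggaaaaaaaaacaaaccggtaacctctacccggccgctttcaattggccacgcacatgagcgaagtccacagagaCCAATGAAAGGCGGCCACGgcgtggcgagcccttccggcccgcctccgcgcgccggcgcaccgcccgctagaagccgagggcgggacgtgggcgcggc

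The Hspa5 promoter lies at chr2:34771840-34772089 on the + strand, with the motif at -65 to -47 from the start. That of Hsp90b1 lies at chr10:86705445-86705694 on the - strand and was the only one of the 5 with 2 matches, at -212 to -194 and, on the opposite strand, at -107 to -89. Calr lies at chr8:84846932-84847181 on the - strand, with an opposite-strand match at -162 to -144. Canx lies at chr11:50325674-50325923 on the - strand with a match at -145 to -127, and Pdia6 at chr12:17266339-17266588 on the + strand with a match at -98 to -80. 2 related motifs were searched in the same way and do not overlap the ERSE matches. The core of the unfolded protein response element, TGACGTG, was in the promoter of Hspa5 alone, at -157 to -151, and in 3.17% of tested genes. ERSE-II, which is ATTGG, 1 base of any kind and CCACG, was in none of the 9 and in 0.0826% of tested genes. Pdia3, Pdia4, Dnajb9 and Xbp1 held no ERSE in this window. For Pdia4 and Xbp1, the bases just after the start were not found in a reference transcript of the gene. Their windows may thus miss the promoter, and the absence of a match there says little. A match describes letters only.

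All 10 genes passed the filter on low levels. Total counts ran from 8.31 to 12.9 M (mega) per library, the lowest count of any of the 10 in a library was 184 (Pdia4) and the highest was 17935 (Hspa5). A count of 184 has a counting error of 7.37%, which is not small beside the spread at 0h, where the coefficients of variation of the 10 genes ran from 4.97% to 13.02%. On TPM, a level scaled by gene length and library total, the mean over 16 libraries was highest for Hspa5 at 459 TPM. Calr followed at 347 TPM, Hsp90b1 at 313 TPM, Canx at 268 TPM and Pdia3 at 179 TPM. Dnajb9 at 91.8 TPM, Xbp1 at 90.1 TPM and Pdia6 at 89.4 TPM lay close together. Pdia4 at 42.1 TPM and Hyou1 at 21.9 TPM were lowest. At 0h, where libraries lay closest, the ranges of Hsp90b1 (279 to 315 TPM) and Canx (280.4 to 326 TPM) overlapped, as did those of Dnajb9, Pdia6 and Xbp1, while the other neighbours in this order did not. The 7 cardiomyocyte markers summed to 46790 to 68090 TPM per library with none at 0 in any library, and in bulk RNA fewer cells of a type and less RNA per cell cannot be told apart.

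None of the 10 genes passed the test at any time against 0h. At 3h and 24h their log2 fold changes lay around 0, and at 7d all 10 were positive in the edgeR fit (9 with library totals only or on log2(TPM + 1), where Canx was below 0). edgeR's quasi-likelihood test called 0 of the 10 at 3h against 0h, where 5.31% of the 16866 tested genes were called at an adjusted p under 0.05. It called 0 of 10 at 24h against 0h, where 18.1% of tested genes were called, and 0 of 10 at 7d against 0h, where 1.12% were. At an unadjusted p under 0.05, 0, 1 and 4 of the 10 passed at 3h, 24h and 7d, against 22.7%, 32.9% and 16% of tested genes. DESeq2 called 0 of the 10 at each of these times, beside 8.29%, 20.8% and 2.85% of tested genes. limma on log2(TPM + 1) called 0, 1 (Canx, lower) and 0, beside 5.21%, 21.0% and 0.314%. The comparisons against 0h share their 0h libraries.

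Between the later times, edgeR made 1 call among the 10. At 24h against 3h it called 0, beside 7.78% of tested genes (0 at an unadjusted p under 0.05, beside 22.3%, 0 by DESeq2, beside 9.99%, and 0 by limma, beside 5.57%). At 7d against 3h it called 0, beside 4.87% (3 unadjusted, beside 18.5%, 0 by DESeq2, beside 6.63%, and 0 by limma, beside 2.95%). At 7d against 24h it called Pdia6, higher, where 8.44% of tested genes were called (2 of the 10 unadjusted, beside 23.3%, 2 by DESeq2, beside 10.7%, and 0 by limma, beside 6.61%).

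**Figure D1:**
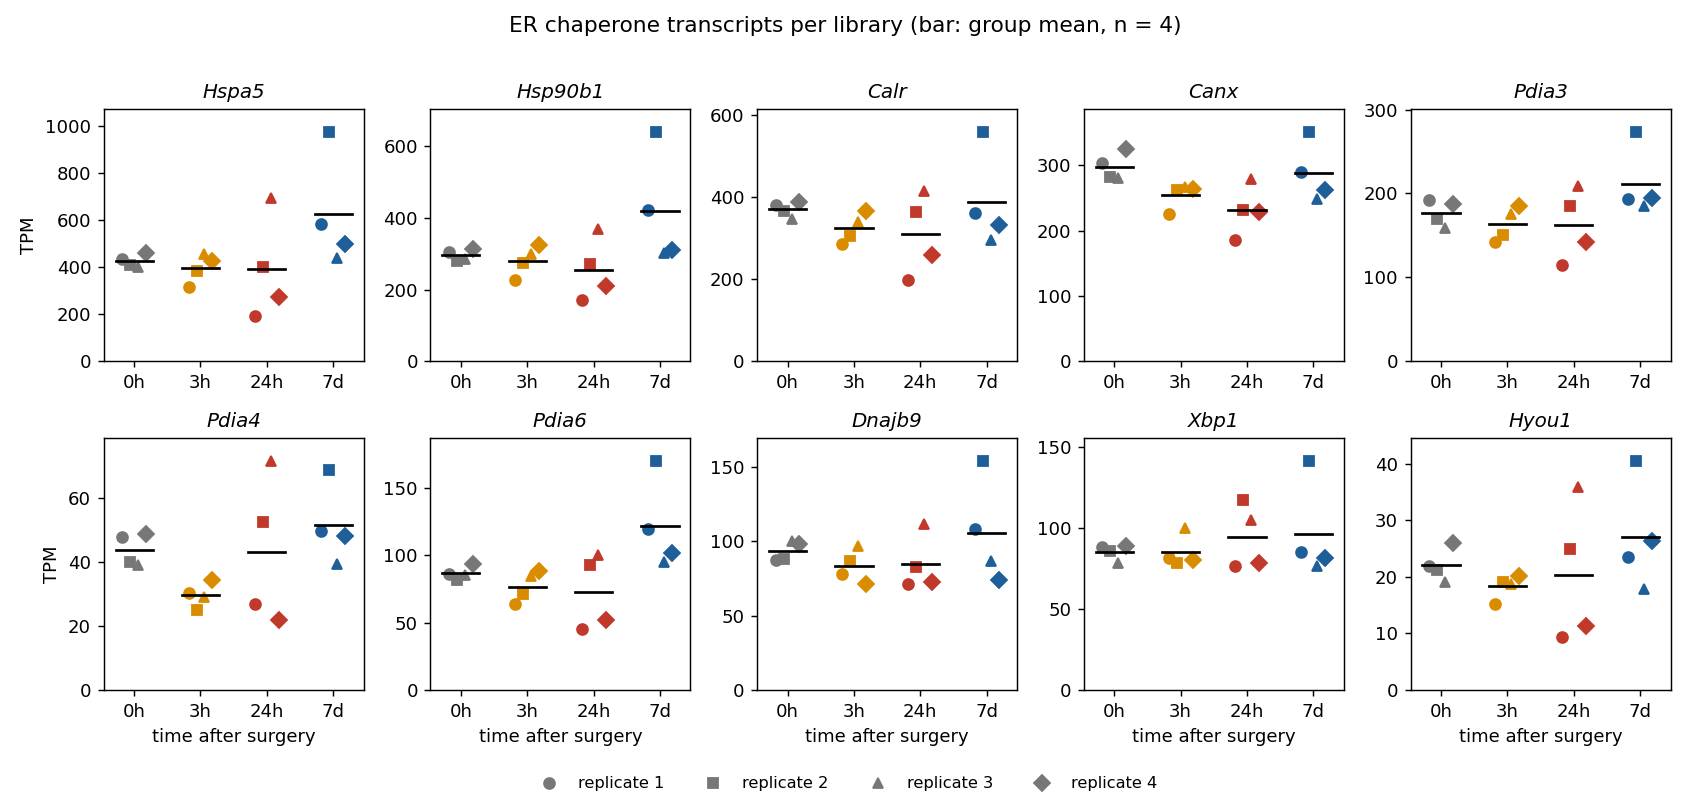
Level in TPM (vertical axis, from 0) of each of the 10 genes in each library against time after surgery, with marker shapes for replicates 1 to 4 and a bar for the mean of 4. At 0h the libraries lie close together, whereas at 24h and 7d they spread, with 7d replicate 2 highest of 16 for 9 genes and 24h replicate 1 lowest for 9.

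Hspa5 (ENSMUSG00000026864) encodes BiP, the main HSP70 chaperone of the ER, which also holds the stress sensors inactive. Its 4 libraries measured 436, 411, 400.1 and 459 TPM at 0h, 315, 382, 455 and 426 TPM at 3h, 193, 403, 694 and 272 TPM at 24h and 584, 975, 441 and 498 TPM at 7d (replicates 1 to 4 throughout). Levels at 24h straddled the 0h range on both sides, and 3 of the 4 libraries at 7d lay above it. The mean was 625 ± 241 TPM at 7d and 426 ± 26.2 TPM at 0h (SD, n = 4 each), a log2 fold change of 0.65 (SE 0.30) that did not pass edgeR's test (adjusted p = 0.306). Without 7d replicate 2 the log2 fold change was 0.32.

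Hsp90b1 (ENSMUSG00000020048) encodes GRP94, the ER member of the HSP90 family. It measured 305, 279, 286 and 315 TPM at 0h, 227, 274, 300.2 and 323 TPM at 3h, 171, 272, 369 and 209.9 TPM at 24h and 422, 640.3, 303 and 311 TPM at 7d. Replicates 1 and 2 at 7d lay above every 0h library, and replicates 3 and 4 lay within the 0h range. The mean at 7d was 419 ± 157 TPM against 296 ± 16.5 TPM at 0h, with a log2 fold change of 0.60 (SE 0.22, edgeR adjusted p = 0.183), and of 0.29 without 7d replicate 2. Across libraries it was the one of the other 9 most like Hspa5.

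Hyou1 (ENSMUSG00000032115) encodes GRP170, a large relative of HSP70 that helps BiP release its nucleotide, and Dnajb9 (ENSMUSG00000014905) encodes ERdj4, a co-chaperone that guides BiP. Hyou1 measured 21.9, 21.2, 19.1 and 26.0 TPM at 0h, 15.2, 19.2, 18.7 and 20.2 TPM at 3h, 9.41, 24.9, 35.9 and 11.3 TPM at 24h and 23.4, 40.5, 17.8 and 26.4 TPM at 7d. It varied most of the 10 at 24h, with the highest library 3.82 times the lowest. Dnajb9 measured 87.1, 88.0, 100.2 and 98.3 TPM at 0h, 78.2, 86.5, 96.7 and 71.5 TPM at 3h, 71.1, 82.5, 112 and 72.7 TPM at 24h and 108, 154, 87.1 and 74.2 TPM at 7d. Its 7d libraries covered both sides of the 0h range. The log2 fold change at 7d against 0h was 0.39 (SE 0.33) for Hyou1 and 0.29 (SE 0.18) for Dnajb9, with edgeR adjusted p = 0.594 and 0.459.

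The lectin chaperones had the smallest log2 fold changes at 7d. Calr (ENSMUSG00000003814), which encodes the soluble and calcium-binding lectin calreticulin, measured 379.8, 364, 347 and 388 TPM at 0h, 286, 305, 339.9 and 366 TPM at 3h, 199, 364, 414 and 259 TPM at 24h and 362, 558, 294 and 331 TPM at 7d. 2 of its 7d libraries lay below the 0h range, 1 within it and 1 above it. Canx (ENSMUSG00000020368), which encodes its membrane-bound relative calnexin, measured 304, 283, 280.4 and 326 TPM at 0h, 226, 263, 267 and 265 TPM at 3h, 186, 231, 279 and 229 TPM at 24h and 291, 351, 248 and 262 TPM at 7d. Every Canx library at 3h and at 24h lay below every 0h library in TPM. On this scale 20.6% of all tested genes at 3h and 17.0% at 24h lay below the 0h libraries in the same way. The edgeR log2 fold change of Canx was -0.05 at 3h (SE 0.12, adjusted p = 0.856) and -0.16 at 24h (SE 0.12, adjusted p = 0.393). At 7d against 0h it was 0.05 (SE 0.12) for Canx and 0.17 (SE 0.18) for Calr, and without 7d replicate 2 it was -0.09 for Canx and -0.10 for Calr.

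The 3 protein disulfide isomerases form and rearrange disulfide bonds. Pdia6 (ENSMUSG00000020571), which encodes a disulfide isomerase that also acts on the sensor IRE1, measured 86.3, 81.8, 85.0 and 93.3 TPM at 0h, 63.4, 70.9, 84.6 and 88.1 TPM at 3h, 45.3, 92.9, 100.3 and 52.2 TPM at 24h and 119, 170.1, 94.9 and 102 TPM at 7d. Every 7d library lay above every 0h and every 3h library, while 2 of the 24h libraries lay within the spread of the other times and 2 far below. At 7d the mean was 122 ± 33.9 TPM against 72.6 ± 27.9 TPM at 24h (SD, n = 4 each), a log2 fold change of 0.66 (SE 0.20) that passed edgeR's test by a small margin (adjusted p = 0.0495). The 7d and 24h libraries overlapped. The call was lost in 20 of 27 alternatives, among them those without 24h replicate 1 or 4, 7d replicate 1, 2 or 4 or any 0h or 3h library (adjusted p 0.0506 to 0.146). Over all alternatives the adjusted p ran from 0.0142 with DESeq2 to 0.641 with the atrial marker Myl7 as a covariate. Against 86.6 ± 4.84 TPM at 0h the log2 fold change at 7d was 0.59 (SE 0.20, adjusted p = 0.163), and 0.35 without 7d replicate 2. Among all tested genes, 1.96% had every 7d library above every 0h library, as Pdia6 alone of the 10 had.

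Pdia3 (ENSMUSG00000027248) encodes ERp57, the isomerase that works with calreticulin and calnexin. It measured 193, 169, 159 and 188 TPM at 0h, 142, 151, 176 and 185 TPM at 3h, 115, 185, 208 and 142 TPM at 24h and 193, 273, 185 and 195 TPM at 7d. Of its 7d libraries only replicate 2 lay well above the 0h range, and the log2 fold change at 7d against 0h was 0.36 (SE 0.14, edgeR adjusted p = 0.218). Pdia4 (ENSMUSG00000025823), which encodes ERp72, measured 47.7, 40.2, 39.2 and 48.8 TPM at 0h, 30.3, 24.96, 29.1 and 34.4 TPM at 3h, 27.0, 52.6, 71.7 and 21.8 TPM at 24h and 49.9, 68.8, 39.5 and 48.1 TPM at 7d. In TPM, all 3h libraries of Pdia4 lay below all 0h and all 7d libraries, and the 24h libraries fell on both sides. Of all tested genes, 20.6% lay below the 0h libraries at 3h in the same way. On log2 CPM (counts scaled to the library) Pdia4 overlapped, with 3h replicate 4 (4.89) above 0h replicate 3 (4.86). The log2 fold change of Pdia4 was -0.38 at 3h against 0h (SE 0.27, adjusted p = 0.428) and 0.71 at 7d against 3h (SE 0.27, adjusted p = 0.155), neither past the threshold. In fits of the 2 compared groups alone, Pdia4 passed in both comparisons, where 18.9% and 6.56% of tested genes were called. At 7d against 3h, Pdia3, Pdia4 and Pdia6 had no overlap between groups in TPM, 3 of 10 where 8.59% of tested genes lay higher without overlap. On log2 CPM Pdia3 overlapped, with 3h replicate 4 (7.70) above 7d replicate 1 (7.59).

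Xbp1 (ENSMUSG00000020484) had the lowest correlation with the rest of the group, given below. It measured 88.1, 85.7, 78.2 and 88.7 TPM at 0h, 81.2, 78.5, 100.1 and 80.3 TPM at 3h, 76.4, 117, 105 and 78.1 TPM at 24h and 85.3, 141, 76.5 and 81.3 TPM at 7d. In TPM the 24h libraries fell into a pair above the 0h range and a pair at or just below its lower end. On log2 CPM, every 24h library of Xbp1 (lowest 6.60) lay above every 0h library (highest 6.56). How many of all tested genes do so on that scale was not computed. The log2 fold change of Xbp1 was 0.34 at 24h against 0h (SE 0.16, edgeR adjusted p = 0.147) and 0.28 at 7d against 0h (SE 0.16, adjusted p = 0.415). Without 7d replicate 2 the 7d difference was -0.004. Xbp1 then passed at 24h against 0h, beside 19.5% of tested genes, and, as a lower value, at 7d against 24h. For the latter the share of tested genes in the same fit is not given here. Over all alternatives, 24 to 2457 genes were called at 7d against 24h.

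**Figure D2:**
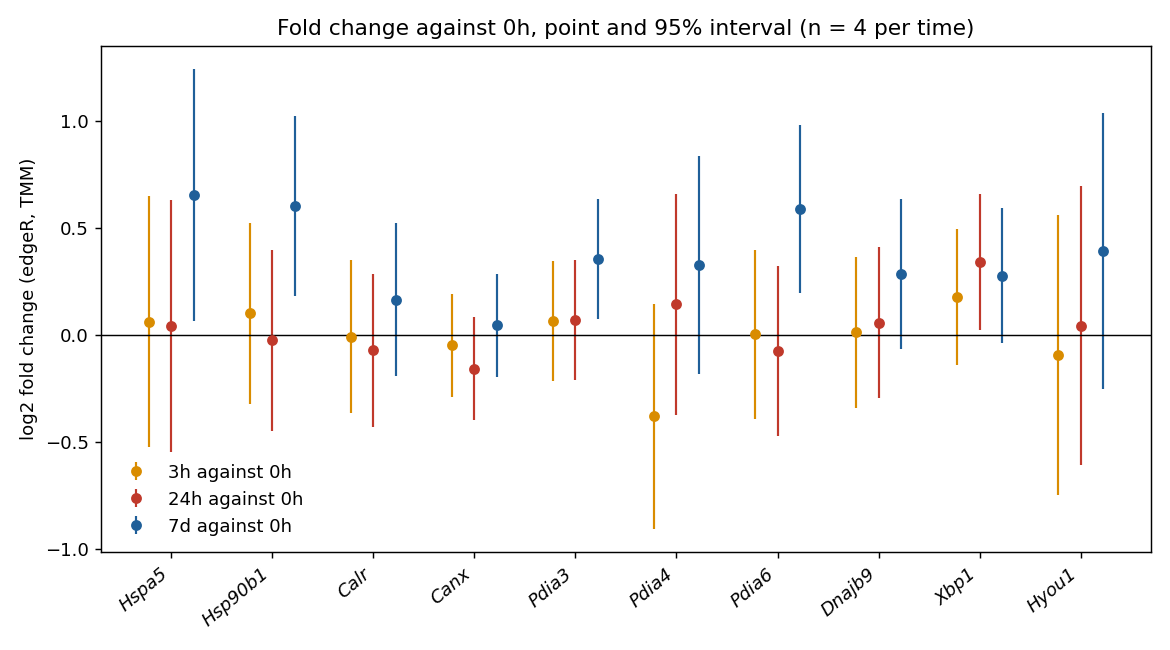
edgeR log2 fold change (vertical axis) of each gene at 3h, 24h and 7d against 0h, as points with their 95% intervals, 4 libraries per time. The 7d points all lie above 0, from 0.05 for Canx to 0.65 for Hspa5, and 9 of 10 do with library totals only or on log2(TPM + 1).

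Over the 10 genes, the median log2 fold change was 0.01 at 3h, 0.04 at 24h and 0.34 at 7d against 0h, beside medians of 0.00, -0.01 and 0.00 over all tested genes. At 7d the 10 of 10 above 0 stand beside 49.6% of tested genes. The direction of the group at 3h and 24h depended on the scale. On log2(TPM + 1), 0 of 10 lay above 0 at 3h and 1 of 10 at 24h, with medians of -0.18 and -0.28, but there the median of all tested genes was itself -0.15 and -0.19. With library totals only, 2 of 10 lay above 0 at each of these times. One library carried much of the 7d median, which was 0.11 with 7 of 10 above 0 when 7d replicate 2 was left out. With Myl7 as a covariate it was 0.33.

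Libraries of the same time differed widely at 24h and, through 1 library, at 7d. The summed TPM of the 10 genes was 1793 to 2030 at 0h and 1464 to 1868 at 3h. It was 1092, 1823, 2390 and 1348 at 24h and 2238, 3373, 1787 and 1929 at 7d. The lowest and the highest of the 16 sums thus both came from the late times. The coefficient of variation over 4 libraries had a median over the 10 genes of 6.62% at 0h, 12.7% at 3h, 32.8% at 24h and 31.0% at 7d. Over the 5220 genes with a mean of at least 20 TPM the median was 7.90%, 9.29%, 14.6% and 12.1% at the same times. Of the 10 genes, 6 at 24h and 8 at 7d exceeded the 90th percentile of those genes (31.1% and 23.5%), and 0 did at 0h and 3h. The 7d spread rested on 1 library. Without 7d replicate 2 the 7d median was 11.98% beside 10.9% over all those genes, and 0 of 10 exceeded their 90th percentile. At 24h the median was 25.7% without replicate 1 (4 of 10 above the 90th percentile) and 27.99% without replicate 3 (5 of 10). At 24h, Hyou1 (61.0%), Hspa5 (56.4%) and Pdia4 (53.7%) varied most, and Canx (16.4%) least. These shares are a description with no test.

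**Figure D3:**
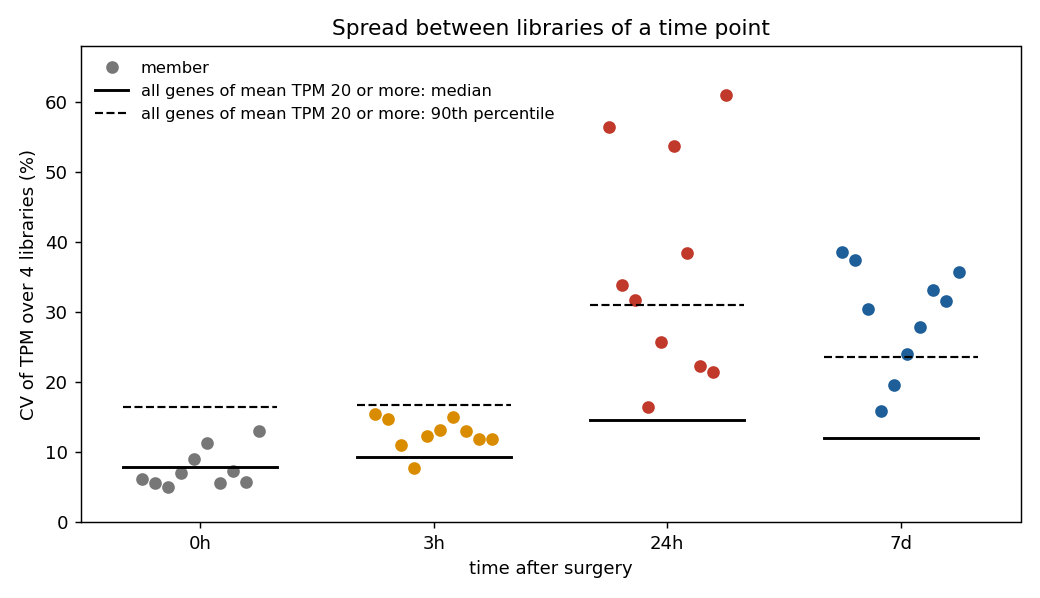
Coefficient of variation of TPM over the 4 libraries of each time (vertical axis, percent), 1 point per gene from left to right in the order Hspa5, Hsp90b1, Calr, Canx, Pdia3, Pdia4, Pdia6, Dnajb9, Xbp1 and Hyou1, with the median (solid line) and 90th percentile (dashed line) of the 5220 genes with a mean of at least 20 TPM. All 10 points lie above the solid line at 24h and 7d, and 3 of 10 do at 0h. Without 7d replicate 2, 6 of 10 would at 7d.

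The same libraries set most genes apart. In TPM, 7d replicate 2 was highest of 16 for 9 genes, all but Pdia4, which was highest in 24h replicate 3. 24h replicate 1 was lowest of 16 in TPM for 9 genes, and Pdia4 was lowest in 24h replicate 4. Within 24h, replicate 3 was highest in TPM for 9 genes, all but Xbp1. Some of these ranks depended on the scale. On log2 CPM, Dnajb9 was lowest in 7d replicate 4 (5.94), Xbp1 in 0h replicate 3 (6.29) and Pdia4 in 3h replicate 2 (4.38). Pdia4 was then highest in 7d replicate 2 (5.85, against 5.84 in 24h replicate 3). Other features moved with these libraries. Atrial cardiomyocyte markers (Myl7, Myl4, Sln, Nppa and Stard10) summed to 2808 TPM in 7d replicate 2, the highest of 16, although Sln was at 0 there, against 493 to 1493 TPM at 0h. Its cardiomyocyte markers ranked 14 of 16 at 49540 TPM, its endothelial markers (Pecam1, Cdh5, Kdr and Tie1) 15 of 16 at 229 TPM and its adipocyte markers (Adipoq, Fabp4, Plin1 and Cfd) lowest at 408 TPM, with Plin1 at 0. Cardiomyocyte markers in 24h replicate 1 were the lowest of 16 at 46790 TPM, and its adipocyte markers the highest at 1100.0 TPM, with Adipoq at 0. Cardiomyocyte markers were thus low both where the 10 genes were lowest and where they were highest. Markers of plasma cells, which are rich in ER, summed to 25.8 TPM in 7d replicate 2 against 31.2 to 37.1 TPM at 0h. Apart from the Myl7 covariate, the part of these differences in the result was not tested. Myl7 itself was at 0 in 0h replicates 1 and 4, so this covariate cannot fully separate atrial content from time.

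Across the 16 libraries the 10 genes went up and down together on log2 CPM (counts scaled to the library), a description that rests in part on 2 libraries. Over the 45 pairs the median Pearson r was 0.75 (Spearman 0.60), from 0.41 for Canx and Xbp1 to 0.96 for Hspa5 and Hsp90b1. As deviations from the mean of each time the median r was 0.81 (Spearman 0.77). Without the 2 libraries farthest from the middle of the group's level, 7d replicate 2 and 24h replicate 1, it was 0.46 (Spearman 0.43), with Hspa5 and Hsp90b1 still at 0.90 and Canx and Xbp1 at -0.19. Set against the mean of the other 9, r was 0.96 for Hspa5, 0.95 for Hsp90b1, 0.94 for Calr, 0.93 for Pdia3, 0.92 for Pdia6 and 0.89 for Hyou1. Dnajb9 and Canx at 0.76, Pdia4 at 0.75 and Xbp1 at 0.63 (Spearman 0.28) followed less closely. Pdia4 was most like Hyou1, and Xbp1 most like Dnajb9. All these values share the same libraries and scaling.

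Of the 4 genes most like the group over the 16 libraries, 3 were on the list of other ER folding factors. Likeness was the Pearson r of a gene's log2 CPM with the mean scaled level of the 10, over the 10209 genes with a mean of at least 5 TPM, whose median r was 0.002 and whose 95th percentile was 0.51. Manf, an ER-resident factor that binds BiP, came first with r = 0.97 (Spearman 0.93), and 0.92 without the same 2 libraries. It measured 50.2, 53.7, 45.9 and 71.1 TPM at 0h, 49.0, 45.5, 60.2 and 56.3 TPM at 3h, 26.5, 70.6, 90.4 and 38.9 TPM at 24h and 74.0, 148, 53.5 and 51.0 TPM at 7d, lowest in 24h replicate 1 and highest in 7d replicate 2, as Hspa5 was. Sdf2l1, part of an ER chaperone complex with BiP, followed with r = 0.94 (0.85 without the 2 libraries) and ran from 9.86 TPM in 24h replicate 1 to 88.6 TPM in 7d replicate 2. Mtus2, a microtubule-associated gene, had r = 0.89 (0.79) and Creld2, an ER stress-induced factor, r = 0.89 (0.76). The promoter of Creld2 held an ERSE on the opposite strand at -126 to -108. Plcd3, Atp9a, Appl2, Pnn, Coro6 and Parm1 completed the 10, with r from 0.81 to 0.82, and from 0.34 to 0.58 without the 2 libraries.

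**Figure D4:**
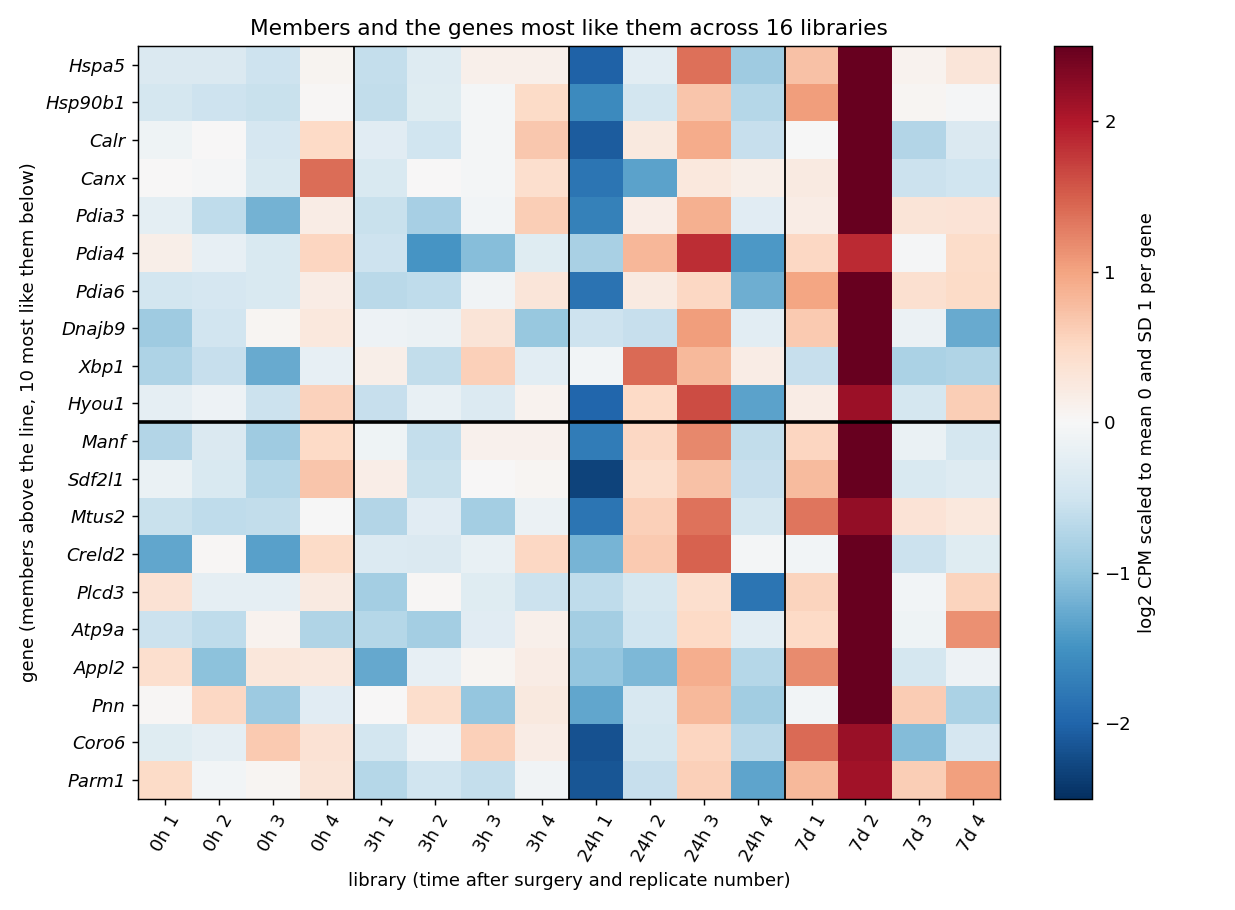
log2 CPM of the 10 genes (above the line) and of the 10 genes most like them (below it) in the 16 libraries, each gene scaled to mean 0 and SD 1 (color scale, limited to 2.5 SD each way). 24h replicate 1 is low and 7d replicate 2 high in most rows. 24h replicate 3 is the next highest column for Hspa5, Calr, Pdia3, Pdia4, Dnajb9 and Hyou1, and below the line for Manf, Mtus2, Creld2 and Pnn.

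Other genes with an ERSE varied widely in this likeness. Here r was taken over all tested genes, without the floor of 5 TPM. Beside the 5 of the 10, 15 other tested genes had the motif, with a median r of 0.12 against 0.00 over the 10886 tested genes outside the group with a promoter. Creld2 (0.89), Dnajc3 (0.73), a co-chaperone of BiP, Alg12 (0.67), a mannosyltransferase of glycan assembly, and Syvn1 (0.56), the ubiquitin ligase of ER-associated degradation, were highest. Ero1b, an ER oxidase, was at -0.32 and Zfp57, an imprinting factor, lowest at -0.48. Their mean levels of 2.22 and 1.62 TPM lay under the floor. Xlr3a, Xlr3b, Gm39859, Spats2l, Gm6566 and Adcy3 did too, with r from -0.20 to 0.19. Above it, the rest were at 0.39 (Hnrnpa3), 0.07 (Acacb) and 0.02 (Pan2). The median of 0.12 thus rests in part on genes of low level. Pdia3 and Hyou1 had high likeness within the group, Pdia3 with no match in its window.

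Other genes of ER folding and stress were taken from 6 lists holding 93 genes, of which 92 were tested (Derl3 was not). Across these lists 4 genes were called at 3h against 0h, 16 at 24h and 2 at 7d, or 4.35%, 17.4% and 2.17% of 92, near the 5.31%, 18.1% and 1.12% of all tested genes. At 24h against 3h 5 were called (5.43% of 92), at 7d against 24h 9 (9.78%), and at 7d against 3h 3 (3.26%). Of all tested genes, 7.78%, 8.44% and 4.87% were called in these comparisons. Over time edgeR called 15 of the 92 and 0 of the 10 beside 20.7% of tested genes. Of the 10, 2 had an unadjusted p under 0.05 over time (36.7% of tested genes), 2 passed with DESeq2 (26.5%) and 0 with limma (18.1%).

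Among the 20 tested genes of ER-associated degradation, which removes misfolded proteins, 1 was higher at 3h against 0h and 6 were higher at 24h, with none lower, where 5.31% and 18.1% of all tested genes were called in either direction. Herpud1, a membrane component of the degradation complex that the unfolded protein response induces, measured 430, 491, 478 and 500.1 TPM at 3h, against 259, 244, 337 and 228 TPM at 0h. The groups did not overlap, and Herpud1 rose by a log2 fold change of 1.02 (SE 0.21, edgeR adjusted p = 0.0106). At 24h it measured 459, 255, 344 and 458 TPM (log2 fold change 0.76, adjusted p = 0.0195), with replicates 1 and 4, in which Hspa5 was low, the highest. At 7d it was again at 280.4, 313, 185 and 224 TPM, lower than at 3h by a log2 fold change of -1.01 (adjusted p = 0.00922). Its likeness to the group was -0.23, the lowest of its list, and its promoter window held an ERSE-II and no ERSE. Derl2, Ufd1 and Ube2g2 completed the 6. Aup1, which recruits ubiquitin enzymes to the ER membrane, rose at 24h (0.59 on the log2 scale, SE 0.13, adjusted p = 0.00437), as did Os9, a lectin for misfolded glycoproteins (0.39, SE 0.12, adjusted p = 0.0226). With Myl7 as a covariate each of these calls was lost, with adjusted p = 0.0587 for Herpud1 at 3h and 0.418 at 24h, 0.0709 at 7d against 3h, 0.204 for Aup1 and 0.334 for Os9. The log2 fold changes of Herpud1 were then 0.92, 0.53 and -0.89, those of Aup1 and Os9 0.56 and 0.38, and 184 genes were called at 3h and 89 at 24h against 0h in place of 895 and 3061. The 24h call of Herpud1 was also lost without 0h replicate 1, 2 or 4 or 24h replicate 1 or 4 (adjusted p 0.0513 to 0.0796), and that of Os9 without 0h replicate 2, 3 or 4 or 24h replicate 1 or 4 (0.0518 to 0.0840). limma on log2(TPM + 1) and log2(TPM + 0.1) lost Herpud1 (0.0767 and 0.0770) and Os9 (0.224 and 0.226) at 24h. In edgeR, the compared groups alone lost both (0.0515 and 0.0528), no filter lost Herpud1 (0.0659) and library totals only lost Os9 (0.0785).

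The PERK branch, whose targets include factors that restart translation, had 3 of 7 genes higher at 24h against 0h (Atf4, Ppp1r15a and Eif2s1) and 1 higher and 1 lower at 7d, where 18.1% and 1.12% of all tested genes were called. Atf4, the main factor of the branch, measured 130, 151, 123 and 120.3 TPM at 24h, against 96.6, 102, 108 and 96.9 TPM at 0h. All 24h libraries lay above all 0h libraries, and Atf4 rose (log2 fold change 0.59, SE 0.11, adjusted p = 0.00126). It also passed at 7d (0.47, SE 0.11, adjusted p = 0.0381). Chac1, a glutathione-degrading enzyme induced by Atf4, measured 3.45, 2.67, 1.98 and 3.52 TPM at 7d, against 9.30, 13.8, 17.5 and 4.82 TPM at 0h. Every 7d library lay below every library of the other times, and Chac1 fell, with a log2 fold change of -1.84 at 7d against 0h (SE 0.37, adjusted p = 0.0210) and of -2.30 against 24h (SE 0.35, adjusted p = 0.000421). Against 13.2, 14.2, 22.04 and 13.98 TPM at 3h the log2 fold change at 7d was -2.53 (SE 0.35, adjusted p = 0.000279), a call kept in all 27 alternatives run. Ppp1r15a, which reverses the translation block, rose at 24h against 0h (0.79, SE 0.19, adjusted p = 0.00689). Atf3, a stress factor, was higher at 24h than at 3h (1.27, SE 0.33, adjusted p = 0.0224). The median likeness of this list to the 10 genes was -0.07. With Myl7 as a covariate the calls at 24h were lost (adjusted p = 0.157 for Atf4, 0.291 for Ppp1r15a and 0.177 for Atf3), and so was Chac1 at 7d against 24h (0.175). Leaving out 1 library ended the 7d calls against 0h of Atf4 (any 0h library, 3h replicate 3 or 7d replicate 1, 2 or 3, adjusted p 0.0511 to 0.125) and of Chac1 (0h replicate 2 or 3 or 7d replicate 2 or 3, 0.0717 to 0.0783), and the call of Atf3 without 3h replicate 2, 3 or 4 (0.0607 to 0.0641). The 7d call of Atf4 was also lost with limma on log2(TPM + 1) and log2(TPM + 0.1) (0.139 and 0.155). In edgeR, it was lost with library totals only (0.0611) and a replicate block (0.0676), and the call of Atf3 with no filter (0.0720).

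**Figure D5:**
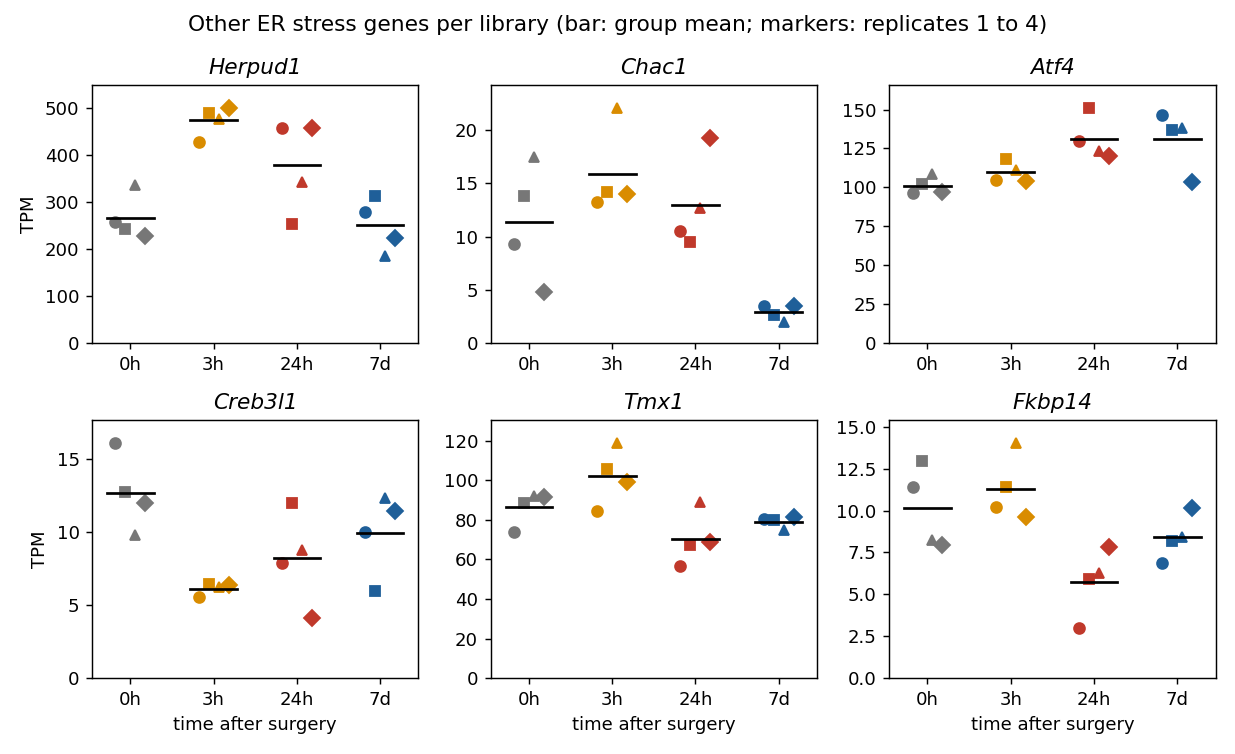
Level in TPM (vertical axis, from 0) of 6 other ER genes in each library against time after surgery, with marker shapes for replicates 1 to 4 and a bar for the mean of 4. Herpud1 is highest at 3h, Chac1 lies lowest at 7d in every library, and all 24h libraries of Atf4 lie above those of 0h.

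Of the 9 sensor and processing genes, 1 was lower at 3h against 0h and 1 was higher (Rtcb) and 1 lower (Creb3l2) at 24h. Beside this list and the next stand 5.31%, 18.1% and 1.12% of all tested genes called at 3h, 24h and 7d against 0h. Creb3l1, an ER-anchored transcription factor, fell to 5.54, 6.43, 6.23 and 6.42 TPM at 3h, against 16.1, 12.8, 9.85 and 12 TPM at 0h, a log2 fold change of -0.87 (SE 0.23, adjusted p = 0.0300). Rtcb, the ligase that joins cut Xbp1 RNA, rose at 24h (0.41, SE 0.12, adjusted p = 0.0177). Other folding factors had 2 of 28 higher at 3h, Fkbp7 (0.49, SE 0.13, adjusted p = 0.0361) and Tmx1 (0.41, SE 0.11, adjusted p = 0.0364), a prolyl isomerase and a membrane-bound thioredoxin of the ER. At 24h Cnpy2 was higher and Txndc5 lower, and at 7d 0 passed. Tmx1 and Fkbp14, another prolyl isomerase, were lower at 24h than at 3h (log2 fold changes -0.50 and -0.95, SE 0.11 and 0.22, adjusted p = 0.00785 and 0.00889). Yet 11 of these 28 genes exceeded the 95th percentile of likeness to the group, with a list median of 0.31. Leaving out 1 library ended the calls at 3h of Creb3l1 (0h replicate 1, 2 or 4 or any 3h library, adjusted p 0.0565 to 0.125), Fkbp7 (0h replicate 1, 2 or 3 or 3h replicate 1, 2 or 4, 0.0700 to 0.138) and Tmx1 (0h replicate 1, 2 or 3 or 3h replicate 2, 3 or 4, 0.0641 to 0.148), and at 24h of Rtcb (24h replicate 1 or 4, 0.0679 to 0.0741). With Myl7 as a covariate these 4 calls were lost too (adjusted p = 0.161 for Creb3l1, 0.0753 for Fkbp7, 0.142 for Tmx1 and 0.345 for Rtcb). limma on both pseudocounts lost Rtcb (0.164 and 0.167), Tmx1 (0.251 and 0.257) and Fkbp7 (0.0729 and 0.0775). In edgeR, Tmx1 was also lost with library totals only (0.0605), and Creb3l1 (0.0570) and Fkbp7 (0.0564) with a replicate block.

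The 13 genes of the glycoprotein folding cycle had 0, 1 (Dad1) and 0 calls at 3h, 24h and 7d against 0h. Of all tested genes, 5.31%, 18.1% and 1.12% were called at these times. Rpn1, a subunit of the oligosaccharyltransferase that attaches glycans, was higher at 7d than at 24h, with 57.5, 60.9, 50.1 and 62.2 TPM at 7d, against 34.3, 44.8, 45.8 and 38.1 TPM at 24h. These libraries did not overlap, and the log2 fold change was 0.39 (SE 0.10, adjusted p = 0.0138). The list's median likeness was 0.43, the highest of the 6 lists, with 5 of 13 above the 95th percentile. The 15 genes of the translocon, the channel into the ER, and of signal peptidase had 0, 2 (Spcs1 and Ssr4) and 0 calls at the same times, beside the same shares. Spcs1, a signal peptidase subunit, rose at 24h (0.46, SE 0.12, adjusted p = 0.0118), and Ssr2, a translocon-associated protein, was lower at 24h than at 3h (-0.38, SE 0.10, adjusted p = 0.0242). These calls were lost for Rpn1 without 24h replicate 1 (adjusted p = 0.0504), for Spcs1 without 24h replicate 4 (0.0594) and for Ssr2 without 3h replicate 1, 2 or 4 or 24h replicate 3 (0.0577 to 0.0697). With Myl7 as a covariate the adjusted p was 0.477 for Rpn1, 0.345 for Spcs1 and 0.0973 for Ssr2, at log2 fold changes of 0.36, 0.37 and -0.38. Rpn1 and Ssr2 were also lost with the compared groups alone (0.108 and 0.0682), Ssr2 with no filter (0.0651) and Spcs1 with limma (0.0637 and 0.0655). Called genes named here with no values (Eif2s1, Derl2, Ufd1, Ube2g2, Creb3l2, Cnpy2, Txndc5, Dad1 and Ssr4) were named after their values were seen.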

How the data were processed

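Per the labels' protocols, TRIzol was used to isolate RNA from left ventricle, followed by DNase and a strand-specific NEBNext library kit. The submitters' processing notes name cutadapt, STAR and build mm10, with no versions. The counting tool and its use of strand were not stated, so overlapping and antisense genes are uncertain. The authors deposited 1 table without mitochondrial genes that holds raw counts, TPM and FPKM for every library beside a gene length. By the deposited column names and values, its raw counts are whole numbers and not normalized. TPM as deposited matched the counts and lengths, and the deposited FPKM were left unused. Columns were tied to libraries by the time and number they carry, since their prefix is not that of the sample titles.

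A gene was tested if its TPM averaged 0.5 or more across all libraries (16866 genes). edgeR 4.0.16 in R 4.3.3 was run on counts with TMM scaling (glmQLFit, robust, legacy off, 1 fit of 16 libraries, then glmQLFTest). Benjamini-Hochberg adjustment covered every tested gene of a comparison, with a threshold of 0.05. A log2 fold change is from that fit, and a TPM is a level as deposited. Ranges and overlaps of libraries are in TPM unless another scale is named. Alternatives were DESeq2 1.42.0, limma 3.58.1 on log2(TPM + 1), other scalings and filters, fits with the 2 compared groups only, Myl7 as a covariate, a block for the replicate number and the omission of each library. log2 CPM used TMM and a prior count of 2. Promoters come from RefSeq (GRCm38.p6), matched by symbol. The 10 genes, the other lists and the tests were chosen with earlier results of these data known, so no pattern here is independent support. All 10 genes are named. Of each other list, up to 4 genes past the threshold over time with the smallest p are named, and the 10 genes of highest r with the group. Ddit3 had 2 rows, of which the one with the higher level was used.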

Additional observations from a re-analysis of the deposited data

Results flagged for a closer look

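In 4 of the 40 sets of 4 libraries (10 genes at 4 times), 1 library stood apart from the other 3 by Dixon's test, and chance alone does this in about 1 set in 20. Canx had 226 TPM in 3h replicate 1, below the other 3h libraries. Pdia3 had 273 TPM and Xbp1 had 141 TPM in 7d replicate 2, above the other 7d libraries. Xbp1 also had 100.1 TPM in 3h replicate 3, above the other 3h libraries. In TPM, 7d replicate 2 was the highest of the 16 libraries for 9 of the 10 genes, so its gaps are not separate observations.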

How the results depend on the processing

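The count of the 10 genes called was 0 at 7d against 0h and at 24h against 3h under every alternative run. At 3h against 0h it was 1 in the fit of the compared groups alone (Pdia4, lower, beside 18.9% of all tested genes), and at 7d against 3h 1 in that fit (Pdia4, higher, beside 6.56%). At 24h against 0h it was 1 with limma on log2(TPM + 1) and on log2(TPM + 0.1) (Canx, lower, beside 21.0% and 20.5%), and 0 to 1 when a library was left out (Xbp1, higher, without 7d replicate 2, beside 19.5%). At 7d against 24h it was 0 with median of ratios scaling, no filter, limma on both pseudocounts, the compared groups alone, Myl7 as a covariate and dispersions from estimateDisp, an alternative chosen after seeing the data, and 2 with DESeq2 (Hsp90b1 and Pdia6). Leaving out a library gave 0 to 3, with 3 (Hsp90b1, Hspa5 and Pdia6) without 24h replicate 3, where 14.6% of all tested genes were called beside 8.44% with every library. Without 7d replicate 2 the 1 called was Xbp1 (lower) and without 7d replicate 4 it was Hsp90b1. For the fits without 7d replicate 2 or 4, the share of all tested genes called is not given here. Over time it was 1 for genes of mean TPM of 2 or more (beside 25.5%), 2 with DESeq2 (26.5%) and 0 to 3 when a library was left out, with 3 without 24h replicate 3 (28.5%). At 7d against 0h the log2 fold change of Canx turned to -0.00278 with library totals only, -0.06063 with limma on log2(TPM + 1) and -0.06085 on log2(TPM + 0.1). Leaving out a library, it ran from -0.0932 to 0.116 for Canx, -0.101 to 0.270 for Calr and -0.00391 to 0.367 for Xbp1, below 0 in each case without 7d replicate 2. Of 1269 log2 fold changes under alternatives, over 47 results, 1073 kept direction and side of the threshold, 181 lost the call, 9 gained one and 6 reversed. Over all tested genes, the count called was 895 at 3h against 0h (184 to 3193 over the alternatives), 3061 at 24h against 0h (89 to 4352), 189 at 7d against 0h (27 to 481), 1313 at 24h against 3h (552 to 1685), 1424 at 7d against 24h (24 to 2457), 821 at 7d against 3h (250 to 1119) and 3484 over time (937 to 4802). The lowest of these came with Myl7 as a covariate, except at 7d against 0h, where it came with limma on log2(TPM + 0.1).
Same-numbered libraries did not deviate together (r -0.167 to 0.106 over 24 pairs, 2 of them over 0.1, and 4 of 16 libraries closest to their own number). No pairing by number was thus seen, but with 4 libraries per time this cannot exclude one. With a replicate block, Pdia6 was the 1 of the 10 called at 7d against 24h and 0 were called elsewhere. The spread at 24h and 7d without single libraries was also added after seeing the data.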
